A study of Homo sapiens with 12 samples.

Results

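The expression of 9 genes that carry, import, store and sense iron was followed in K562 cells: TF (transferrin), TFRC and TFR2 (its receptors), STEAP3 (an endosomal ferrireductase), FTH1 and FTL (the ferritin subunits), NCOA4 (the ferritin autophagy receptor), and ACO1 and IREB2 (the iron regulatory proteins). The list was chosen by role, except that TF was selected on its strong fall after FT671, the contrast described here. All 9 were found among the 60609 genes that the count tables list, and all 9 were among the 13895 genes that passed the filter on low counts. TF passed that filter through the DMSO libraries alone. Because the fall of TF chose it, the values of TF are given as a description without a test.

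K562 is an established human cell line from a chronic myeloid leukemia, and the compound FT671 blocks USP7, an enzyme that removes ubiquitin from proteins. RNA-seq was available for 3 libraries of cells given DMSO, the solvent, and 3 libraries of cells given 10 µM FT671, all after 48 h. No other agent or genetic change is named for either group. The study also profiled histone marks by ChIP after 24 h in 6 samples, which were not analysed here. According to the study the RNA-seq libraries came from independent experiments, and the p-values below measure the spread between these libraries only.

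Transferrin binds ferric iron in plasma and delivers it to cells by docking on the transferrin receptor, which is taken up through clathrin-coated pits. In the acid endosome the iron is released, reduced by STEAP3 and passed to the cytosol by the transporter SLC11A2 (DMT1), while receptor and empty transferrin return to the surface. Iron that is not used at once is stored in ferritin shells built of FTH1 and FTL, and NCOA4 delivers these shells to the lysosome when iron is needed. When iron is scarce, ACO1 (IRP1) and IREB2 (IRP2) bind RNA hairpins called iron-responsive elements, which protects the TFRC mRNA from decay and blocks translation of the ferritin mRNAs. Erythroid cells, which K562 resembles, take up large amounts of iron through TFRC to make heme.

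The iron-responsive elements are shown first, since they are what sets TFRC apart from FTH1 and FTL in this control circuit. A hairpin was searched on the transcript strand of the MANE Select transcripts of GENCODE, as a C followed by 5 bases, a loop of 6 bases starting CAGTG or CAGAG (letters CAGTGN or CAGAGN), and 5 bases that pair with the first 5, with G-U pairs allowed. Each sequence is written 5′ to 3′ on the transcript strand in DNA letters, with 6 bases of flank on either side, and the capitals mark the bulged C and the loop. The FTH1 and FTL elements lie in the 5′ UTR, at chr11:61967574-61967602 (minus strand) and chr19:48965335-48965363 (plus strand) of hg38, 39 and 33 bases from the start of the transcript.
FTH1: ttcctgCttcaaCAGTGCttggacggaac
FTL: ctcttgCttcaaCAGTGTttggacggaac

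These 2 elements shared 26 of 29 letters, and 16 of 17 in the hairpin itself. TFRC held 5 hairpins in its 3′ UTR on chromosome 3 (minus strand), between 891 and 1457 bases into the UTR. They lie at chr3:196051029-196051057, chr3:196050979-196051007, chr3:196050575-196050603, chr3:196050510-196050538 and chr3:196050463-196050491.
TFRC A: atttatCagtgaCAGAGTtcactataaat
TFRC B: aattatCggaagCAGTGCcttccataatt
TFRC C: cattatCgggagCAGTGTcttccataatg
TFRC D: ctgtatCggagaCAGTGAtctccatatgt
TFRC E: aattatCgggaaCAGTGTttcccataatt

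Of these, 4 hold CAGTGN and the first holds CAGAGN. Such hairpins were rare. With CAGTGN alone they occurred in 19 of 18763 5′ UTRs (0.101%) and 121 of 18780 3′ UTRs (0.644%), and with CAGAGN added in 0.187% and 1.20%. TFRC was the only gene with 5 in its 3′ UTR. Among the other members, a match stood in the 3′ UTR of TF, 14059 bases into a UTR of 18021 bases, and of STEAP3, with 3 G-U pairs. TFR2, NCOA4, ACO1 and IREB2 had none in these windows. A match of letters is not evidence of a working element.

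The libraries held between 4555220 and 14250500 counts, and the smallest count taken as detectable, 3 in a library, corresponded to between 0.208 and 0.666 CPM (counts scaled to 1e+06 per library, with sizes adjusted by edgeR's TMM method). This floor and the counting interval given for TF cover counting error only, because without molecular identifiers several reads can stem from 1 RNA molecule. All 9 erythroid markers checked were above 3 counts in at least 1 library, and their summed level was 663 to 772 CPM in DMSO and 720 to 780 CPM in FT671. Within that list 4 genes were higher after FT671, among them the globin gene HBZ (log2 fold change 1.79), and 4 were lower, among them the erythroid regulators KLF1 (−0.82) and TAL1 (−0.94). Of the marker lists for other cell types, monocyte and granulocyte markers summed to 51.4 to 54.0 CPM in DMSO and 72.6 to 76.0 CPM in FT671, nearly all of it LYZ, with the other 4 of 5 at or under 3 counts in every library and ELANE at 0. Lymphoid markers summed to 18.9 to 23.7 CPM and 26.5 to 32.9 CPM, mostly CD3D, the only one of 5 that was called. Fibroblast markers summed to 2.11 to 2.91 CPM and 2.44 to 2.89 CPM, with COL3A1 and LUM at 0. The part of these shifts in the results was not tested. In bulk RNA, fewer cells of a kind and less RNA per cell cannot be told apart, and RNA counts do not measure protein or translation.

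TF, the ligand, was the member with the largest difference. The gene (ENSG00000091513) lies at chr3:133746040-133796641 on the plus strand of hg38. It was counted 79, 44 and 30 times in DMSO replicates 1, 2 and 3 and 2, 3 and 3 times in FT671 replicates 1, 2 and 3. These are 5.47, 4.03 and 5.55 CPM in DMSO and 0.444, 0.541 and 0.268 CPM in FT671. Every FT671 library was therefore at or under the floor of 3 counts, and every DMSO library held 30 counts or more. Mean TF expression was 5.02 ± 0.854 CPM under DMSO (SD, n = 3) and 0.418 ± 0.138 CPM under FT671 (SD, n = 3).

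Summed over libraries, 153 TF counts in DMSO stood against 8 in FT671. After allowance for library size this was 13.2-fold lower, with a 95% exact binomial interval of 6.53-fold to 31.1-fold. This interval describes the counting error behind the ratio and is no test, since TF was selected on the same values. TF was thus a low transcript already in DMSO. Transferrin is made chiefly by hepatocytes, and the hepatocyte markers were all at or under 3 counts in every library in both groups, with 6 of 8 (APOA1, APOB, SERPINA1, FGA, FGB and TTR) at 0. Their summed level was 0 to 0.0916 CPM in DMSO and 0.179 to 0.361 CPM in FT671.

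The 5 other genes within 250 kb of TF that passed the filter are given for context, and since TF was selected on its fall, nothing is read from their smaller differences. They were compared by the quasi-likelihood test of edgeR, and p-values here and below are adjusted by the Benjamini-Hochberg method over all 13895 genes. SRPRB, a subunit of the signal recognition particle receptor, starts inside the annotated TF gene on the same strand and shares 122 exonic bases with it (0.469% of the TF exons). SRPRB was at 36.2 ± 1.42 CPM in DMSO and 35.2 ± 2.72 CPM in FT671 (log2 fold change −0.03, adjusted p = 0.81). TOPBP1, a DNA replication and damage response protein whose start lies 83.7 kb upstream, was lower (−0.78, adjusted p = 0.000274). CDV3 (0.22, adjusted p = 0.0181) and RAB6B (0.37, adjusted p = 0.0183) were higher, and ENSG00000285908 was not called (0.24, adjusted p = 0.451). The calls of CDV3 and RAB6B were lost in 4 and 3 of 15 alternative settings.

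**Figure D1:**
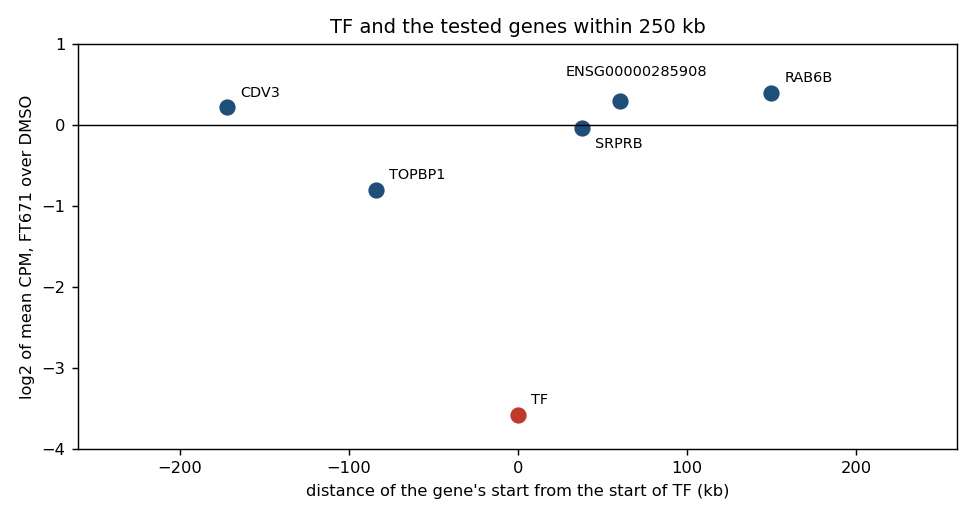
Log2 ratio of mean CPM in FT671 over mean CPM in DMSO (vertical axis) for TF and the 5 other tested genes within 250 kb, against the distance in kb of each gene's start from that of TF (horizontal axis, positive to the right on the plus strand). TF (red) is at the bottom with means of 5.02 and 0.418 CPM, while SRPRB, which overlaps it, sits at the zero line.

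TFRC, the main transferrin receptor, fell modestly. The gene (ENSG00000072274) lies at chr3:196012511-196082153 on the minus strand, and 3 genes that overlap it had at most 4 counts in any library. TFRC stood at 528, 514 and 654 CPM in DMSO replicates 1 to 3 and at 416, 432 and 435 CPM in FT671 replicates 1 to 3. The groups did not overlap, and DMSO replicate 3 was the highest library. The means were 565 ± 77.5 and 427 ± 10.1 CPM (SD, n = 3 each), a ratio of 0.756. The log2 fold change was −0.40 (SE 0.0877, 95% interval −0.59 to −0.21, adjusted p = 0.00176 by edgeR's quasi-likelihood test). The call held in all 15 alternatives, in which the value ran from −0.46 to −0.26, the smallest with a correction for gene length.

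TFR2, the second receptor, which serves as an iron sensor in liver and erythroid cells, was lower by a narrow margin. The gene (ENSG00000106327) lies at chr7:100620416-100642779 on the minus strand. Its level was 276, 274 and 251 CPM in DMSO and 248, 229 and 224 CPM in FT671. The groups were apart, but only narrowly, between DMSO replicate 3 and FT671 replicate 1. Its fitted log2 fold change was −0.20 (SE 0.0728, 95% interval −0.36 to −0.04, adjusted p = 0.0352 by edgeR's quasi-likelihood test). This call was lost in 9 of 15 alternatives, 4 of which left out a library: it was −0.18 without DMSO replicate 1 (adjusted p = 0.122), −0.17 without DMSO replicate 2 (adjusted p = 0.105), −0.18 without FT671 replicate 2 (adjusted p = 0.136) and −0.17 without FT671 replicate 3 (adjusted p = 0.155). With a GC correction it was −0.12 (adjusted p = 0.0847), the smallest value, and with a gene length correction also −0.12 (adjusted p = 0.155).

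The ratio of TFRC to TFR2 counts within a library was 1.91, 1.87 and 2.61 in DMSO and 1.68, 1.89 and 1.94 in FT671. These ranges overlapped. The fold of 0.870 between the group ratios did not pass a two-sided exact permutation test on the log2 ratio (p = 0.5, where 3 libraries against 3 cannot go below 0.1).

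STEAP3, the endosomal ferrireductase, was not called. The gene (ENSG00000115107) lies at chr2:119223831-119265652 on the plus strand. It stood at 28.7, 29.9 and 29.6 CPM in DMSO and at 35.8, 30.7 and 28.7 CPM in FT671. The ranges overlapped, with FT671 replicate 1 the highest. The log2 fold change of 0.10 (SE 0.11, 95% interval −0.14 to 0.33) did not pass the test (adjusted p = 0.493 by edgeR). The antisense gene STEAP3-AS1 shares 11.0% of the STEAP3 exonic bases and stood at 3.97 ± 0.349 and 4.95 ± 1.58 CPM. Since the strand setting of the counting is not given in the sources used here, reads of overlapping genes on opposite strands cannot be told apart.

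FTL, the ferritin light chain, which promotes iron mineral formation in the shell, rose. The gene (ENSG00000087086) lies at chr19:48965309-48966879 on the plus strand. FTL stood at 3637, 4169 and 3211 CPM in DMSO and at 4979.5, 4761 and 4807 CPM in FT671. Every FT671 library was above every DMSO library. The means were 3672 ± 480.05 and 4849 ± 115 CPM (SD, n = 3 each), a ratio of 1.32. The fit gave a log2 fold change of 0.40 (SE 0.087, 95% interval 0.21 to 0.59, adjusted p = 0.00166 by edgeR's quasi-likelihood test), and the call held in all 16 alternatives (0.31 to 0.51). FTL took 0.327% to 0.415% of all counts in DMSO and 0.470% to 0.492% in FT671, and moved from the 7th to the 4th most counted gene by mean level.

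FTH1, the ferritin heavy chain, which carries the ferroxidase activity, was not called. The gene (ENSG00000167996) lies at chr11:61959718-61967634 on the minus strand. FTH1 stood at 1322, 1484 and 1236 CPM in DMSO and at 1416, 1208 and 1172 CPM in FT671. The groups overlapped, FT671 replicate 1 lying above DMSO replicates 1 and 3. The log2 fold change was −0.09 (SE 0.0879, 95% interval −0.28 to 0.10, adjusted p = 0.407 by edgeR's quasi-likelihood test), so a rise of the size seen for FTL lay outside the interval. The call did not change in any of 17 alternatives.

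FTH1 counts carry a limit of annotation. Exons of BEST1, on the opposite strand, cover 1267 of the 2004 exonic bases of FTH1 (63.2%), and BEST1 was given 925 ± 102 CPM in DMSO and 859 ± 67.4 CPM in FT671 (log2 fold change −0.11). Adding the BEST1 counts to FTH1 gave −0.10 (adjusted p = 0.302). Ferritin pseudogenes took few reads: 20 of 25 FTH1 copies had any counts and together held 266, or 0.390% of the FTH1 count, with 42 on FTH1P20, 34 on FTH1P7 and 23 on FTH1P11. Of 16 FTL copies 11 had counts, 620 in all, or 0.284% of the FTL count, led by FTLP3 with 529, FTLP2 with 31 and FTLP14 with 16. FTLP3 had the same fitted log2 fold change as FTL (0.40, adjusted p = 0.0404), a call lost in 10 of 15 alternatives, and reads on such near-identical copies are uncertain. Summing each family into its parent left the FTL value at 0.40 and the FTH1 value at −0.09.

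The ratio of the ferritin chains within each library also differed between groups. FTL was counted 2.75, 2.81 and 2.60 times as often as FTH1 in DMSO replicates 1, 2 and 3. In FT671 replicates 1, 2 and 3 it was counted 3.52, 3.94 and 4.10 times as often. The ratio rose 1.41-fold with no overlap between groups, and p was 0.1 in a two-sided exact permutation test on the log2 ratio, the smallest that this design allows. With BEST1 added to FTH1, the ratio was 1.70, 1.66 and 1.48 in DMSO and 2.26, 2.29 and 2.30 in FT671, a 1.42-fold rise. The ratio uses the same FTL counts as the test of FTL and is not independent of it.

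NCOA4, which hands ferritin to the autophagosome, was not called. The gene (ENSG00000266412) lies at chr10:46005088-46030623 on the minus strand. Its level was 318, 309 and 359 CPM in DMSO and 310.0, 313 and 331 CPM in FT671. The ranges overlapped. Its fitted log2 fold change was −0.05 (SE 0.0747, 95% interval −0.21 to 0.12, adjusted p = 0.643 by edgeR). Without DMSO replicate 3 its sign turned, to 0.02.

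The iron regulatory proteins moved in opposite directions. IREB2 (ENSG00000136381, chr15:78437431-78501453, plus strand), which is removed by iron-dependent degradation, stood at 75.3, 66.3 and 98.2 CPM in DMSO and at 55.3, 57.2 and 61.9 CPM in FT671. Every FT671 library lay below every DMSO library, and DMSO replicate 3 was again the highest. The means were 79.9 ± 16.4 and 58.1 ± 3.42 CPM (SD, n = 3 each), and the log2 fold change was −0.44 (SE 0.124, 95% interval −0.70 to −0.17, adjusted p = 0.00941 by edgeR's quasi-likelihood test). The call held in all 15 alternatives, but the value shrank to −0.28 without DMSO replicate 3 (adjusted p = 0.00463) and to −0.27 with a gene length correction (adjusted p = 0.0368).

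ACO1 (ENSG00000122729, chr9:32384603-32454769, plus strand), which alternates between a cytosolic aconitase with an iron-sulfur cluster and an RNA-binding form without it, was slightly higher. It stood at 70.4, 70.9 and 73.2 CPM in DMSO and at 80.6, 82.1 and 83.4 CPM in FT671. The replicates were tight, at 71.5 ± 1.48 and 82.0 ± 1.38 CPM (SD, n = 3 each), and the groups were apart. The fit gave a log2 fold change of 0.20 (SE 0.0765, 95% interval 0.04 to 0.37, adjusted p = 0.0407 by edgeR's quasi-likelihood test). The call was lost in 9 of 15 alternatives. It was lost without DMSO replicate 1 (0.19, adjusted p = 0.134), DMSO replicate 2 (0.20, adjusted p = 0.0898), FT671 replicate 1 (0.22, adjusted p = 0.0668), FT671 replicate 2 (0.20, adjusted p = 0.115) or FT671 replicate 3 (0.19, adjusted p = 0.127). With a gene length correction the value was 0.32 (adjusted p = 0.00177), the largest.

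The ratio of IREB2 to ACO1 within each library differed accordingly. The ratio of their counts was 1.07, 0.935 and 1.34 in DMSO and 0.686, 0.697 and 0.743 in FT671, a fold of 0.642 with no overlap (two-sided exact permutation test on the log2 ratio, p = 0.1, the smallest possible). The DMSO ratios lay on either side of 1, and each FT671 library held fewer IREB2 than ACO1 counts. This ratio uses the same counts as the tests of IREB2 and ACO1 and is not independent of them.

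**Figure D2:**
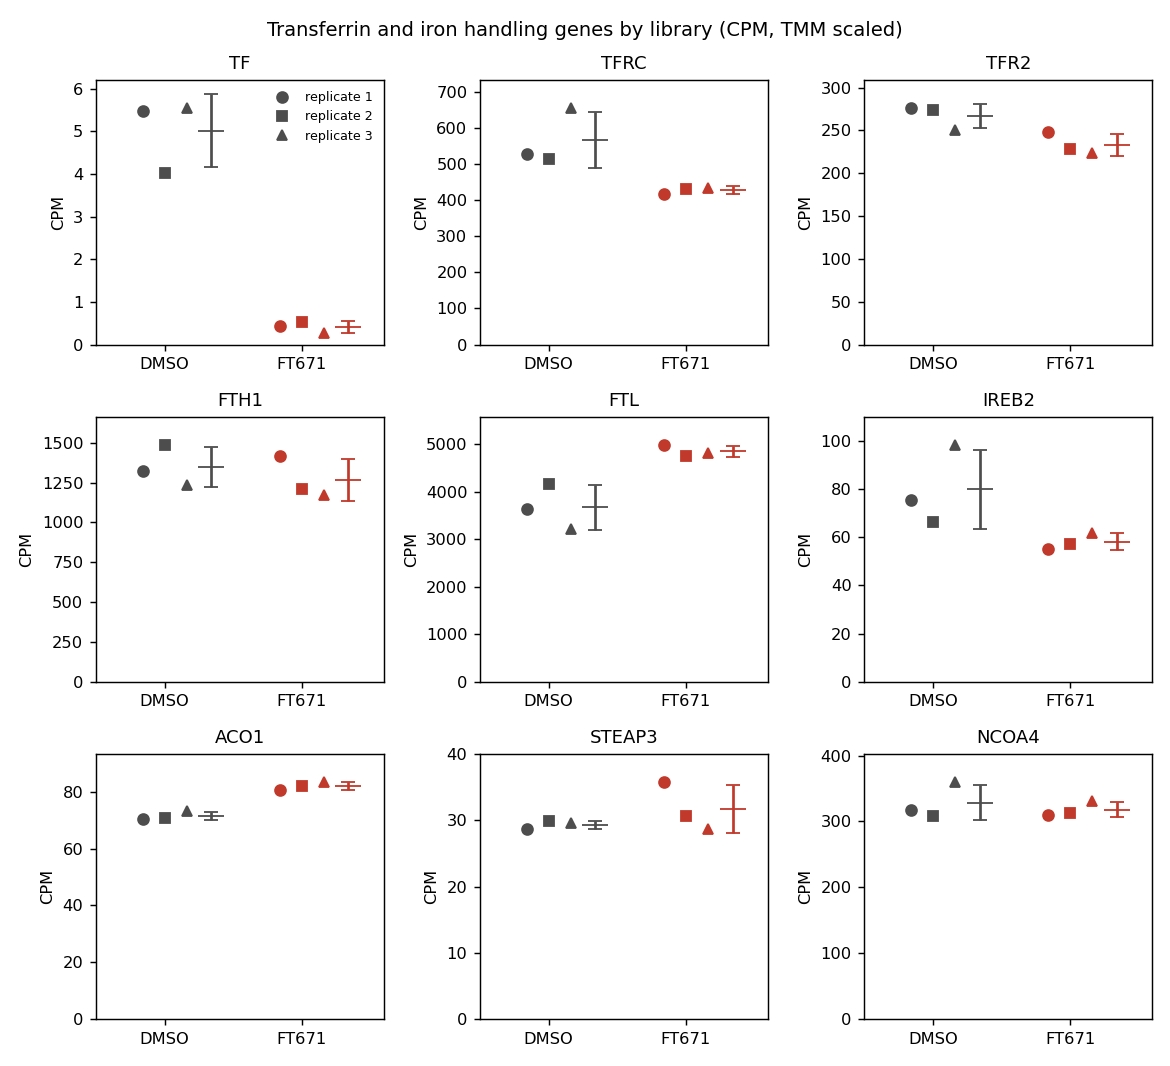
CPM of each of the 9 genes (vertical axes, starting at 0) in the 3 DMSO libraries (grey) and the 3 FT671 libraries (red), with replicates 1, 2 and 3 as circle, square and triangle and the mean ± SD beside them. TF drops from 4.03 to 5.55 CPM to under 0.6 CPM, FTL rises, TFRC, TFR2 and IREB2 are lower, ACO1 is higher, and the groups overlap for FTH1, STEAP3 and NCOA4.

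Counted together, 2 of the 8 genes other than TF (FTL and ACO1) were higher at an adjusted p of 0.05, 3 (TFRC, TFR2 and IREB2) were lower and 3 were not called. Of all genes tested, 23.6% were higher and 26.5% lower, so these shares were near the background. At an adjusted p of 1e-05, the threshold of the study, the background was 1.79% higher and 4.13% lower. Of the 8, edgeR called 0 at this threshold in the main comparison. By edgeR's unadjusted p, 2 were higher and 3 lower at 0.05, and DESeq2's Wald test called 0 at 1e-05. The groups did not overlap for 2 genes that were higher and 3 that were lower, against 26.8% and 30.3% of all genes. The median log2 fold change of the 8 was −0.07, beside −0.01 over all genes tested.

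**Figure D3:**
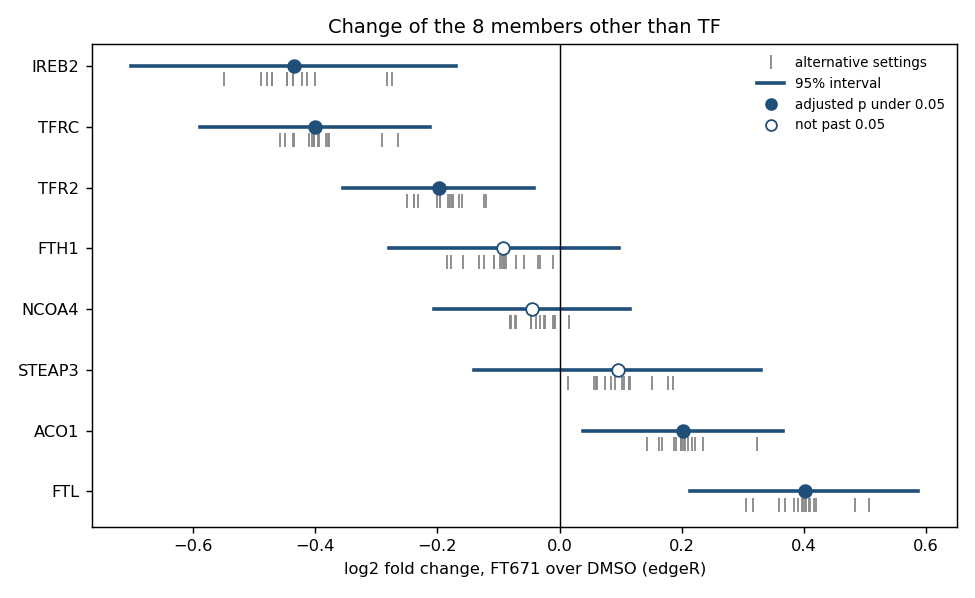
Log2 fold change of FT671 over DMSO (horizontal axis) for the 8 genes other than TF, with the 95% interval as a bar and a grey tick for each alternative setting. Filled points passed an adjusted p of 0.05, and the range runs from IREB2 at −0.44 to FTL at 0.40.

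Per length, the genes were ordered by CPM per kb of the MANE Select transcript. In DMSO the order was FTL at 4216 ± 551, FTH1 at 1120 ± 105, TFRC at 113 ± 15.5, NCOA4 at 94.9 ± 7.79, TFR2 at 92.5 ± 4.93, IREB2 at 12.6 ± 2.60, ACO1 at 9.61 ± 0.199, STEAP3 at 6.90 ± 0.146 and TF at 0.249 ± 0.0423 CPM per kb. TFRC, NCOA4 and TFR2 lay close to each other at this scale, NCOA4 and TFR2 within the SD of NCOA4, and the SD of IREB2 nearly reached ACO1. In FT671 the levels were FTL at 5567 ± 132, FTH1 at 1052 ± 110, NCOA4 at 91.8 ± 3.22, TFRC at 85.3 ± 2.02, TFR2 at 80.9 ± 4.42, ACO1 at 11.0 ± 0.186, IREB2 at 9.19 ± 0.540, STEAP3 at 7.44 ± 0.856 and TF at 0.0207 ± 0.00687 CPM per kb. The mean of TFRC stood in the fourth place instead of the third, behind NCOA4, and that of ACO1 stood above that of IREB2. Both changes of order depended on the length used. Per kb of all annotated exons, TFRC (32.5 in DMSO and 24.6 in FT671) was below NCOA4 (82.4 and 79.7) and TFR2 (52.7 and 46.1) in both groups. On that scale ACO1 (9.47 and 10.9) was above IREB2 (7.40 and 5.38) in both groups. The TF transcript in this annotation is 89.4% 3′ UTR. With the same counts set against the length without that UTR, TF stood at 2.34 ± 0.398 and 0.195 ± 0.0646 CPM per kb. This was still the lowest of the 9. Reads on the UTR were not removed, and the other genes kept their full lengths.

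The patterns most like those of TF and TFRC across the 6 libraries were named by Pearson's r of log2 CPM, as a description, since 6 libraries in 2 groups let any gene with a difference of this kind score high. For TF these were MAPKAP1, a subunit of the mTORC2 kinase complex (r = 0.9985), RRAGA, a Rag GTPase (0.9980), and ENSG00000260725 (0.9979), and 95 genes exceeded 0.99. For TFRC they were USP34 (0.9994), CDC42BPA (0.9989) and WDR76 (0.9974), among 21 genes above 0.99.

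A wider list of 81 further genes of iron uptake, transport, sensing and iron-sulfur cluster assembly was examined, of which 68 were tested. Of these, 15 were higher, 14 were lower and 39 were not called, with a median log2 fold change of 0.03. These shares were not above those over all genes tested, 23.6% higher and 26.5% lower. At 1e-05 edgeR called 0 higher and 2 (CUL1 and SLC40A1) lower, DESeq2's Wald test called 4 higher and 4 lower, and at an unadjusted p of 0.05 edgeR counted 18 higher and 14 lower. Of the calls, 9 higher and 7 lower held in all 15 alternatives. The number higher was 23 with a GC correction, and the number lower was 9 with a gene length correction and 8 without DMSO replicate 1, FT671 replicate 2 or FT671 replicate 3.

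Among the other uptake genes, 1 was called, the endosomal iron transporter SLC11A2. MELTF (0.10, adjusted p = 0.588) and HFE (0.27, adjusted p = 0.528), the other tested genes among ligands and receptors, were not called by edgeR, while LTF had 1 count in all and SCARA5 had 0. SLC11A2, which moves iron out of the endosome, was at 26.8, 19.8 and 26.6 CPM in DMSO and 17.1, 11.4 and 13.1 CPM in FT671. Its groups did not overlap, and it fell by 0.83 on the log2 scale (SE 0.162, adjusted p = 0.000756 by edgeR's quasi-likelihood test). It was the only one of 6 tested reductases and importers, STEAP3 aside, that was called. Over all genes tested 23.6% were higher and 26.5% lower, so nothing particular to these genes is read from this count.

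In the receptor cycle 3 of 13 genes were higher and 3 lower, close to the shares over all genes (23.6% and 26.5%). CLTC, the clathrin heavy chain, was lower (724 ± 80.6 to 487 ± 17.2 CPM, log2 fold change −0.57, adjusted p = 6.15e-05 by edgeR), as were DNM2, the dynamin that pinches off coated vesicles (−0.32, adjusted p = 0.00141), and AP2A2 of the AP2 adaptor (−0.25, adjusted p = 0.0168). SNX3, a sorting nexin that returns the receptor from endosomes, was higher (156 ± 4.61 to 229 ± 8.16 CPM, 0.56, adjusted p = 1.77e-05 by edgeR), as were the AP2 subunits AP2S1 (0.24, adjusted p = 0.0323) and AP2M1 (0.22, adjusted p = 0.0211). The AP2 subunits were thus called in both directions, and the calls of AP2A2, AP2S1 and AP2M1 were lost in 5, 6 and 4 of 15 alternatives.

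Among storage genes, HERC2, the ubiquitin ligase that acts on NCOA4, was lower (−0.51, adjusted p = 8.57e-05 by edgeR) while NCOA4 itself was not called. Of the iron chaperones that load ferritin, PCBP2 was lower (−0.23, adjusted p = 0.0352), a call lost in 7 of 15 alternatives, and PCBP1 was not called (0.03, adjusted p = 0.793). FTMT, FTHL17 and PROM2 had 0 counts in every library.

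The ubiquitin ligase that removes IREB2 when iron is present consists of FBXL5, SKP1, CUL1 and RBX1, and all 4 were tested. CUL1, its scaffold, was at 118, 118 and 150.3 CPM in DMSO and at 52.6, 62.8 and 55.7 CPM in FT671. It had the strongest fall among the 68 tested genes of this list, with a log2 fold change of −1.16 (SE 0.107, adjusted p = 1.23e-06 by edgeR). SKP1, the adaptor, was at 77.5, 80.6 and 78.2 CPM in DMSO and at 116, 124 and 130.1 CPM in FT671 (0.65, SE 0.0766, adjusted p = 1.11e-05 by edgeR). FBXL5, the iron-sensing subunit, was lower by a smaller amount (−0.27, adjusted p = 0.0326), a call lost in 7 of 15 alternatives, and RBX1 was not called (0.09, adjusted p = 0.427). CUL1 and SKP1 also serve many other ligases, and SKP1 is a subunit of the PRC1.1 complex that the study examined.

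Of the genes for iron export, the hepcidin axis and heme breakdown, SLC40A1 (ferroportin), the cellular iron exporter, fell to 0.475 of its DMSO mean. It was at 36.2, 36.4 and 39.7 CPM in DMSO and at 16.0, 18.9 and 18.4 CPM in FT671. The log2 fold change was −1.06 (SE 0.11, adjusted p = 3.99e-06 by edgeR's quasi-likelihood test) and ran from −1.10 to −0.996 over 15 alternatives. BMP6 was lower (−0.46, adjusted p = 0.0438), a call lost in 7 of 15 alternatives, and BLVRA, a biliverdin reductase, was higher (0.35, adjusted p = 0.0018). HMOX1, the inducible heme oxygenase, was listed at 0 in all 6 libraries, which is unusual for this cell line. The cause was not tested, and no level is read from it.

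In the mitochondrial iron-sulfur cluster list 7 of 20 tested genes were higher and 3 lower, where 23.6% and 26.5% of all genes were, and the median was 0.22 beside −0.01 over all genes tested. Nothing particular to the list is read from so few genes. BOLA3, which passes clusters to target proteins, was higher (55.3 ± 4.93 to 89.2 ± 2.20 CPM, 0.68, adjusted p = 2.39e-05 by edgeR). NFS1, the cysteine desulfurase that supplies the sulfur, was higher by 0.64 on the log2 scale (25.7 ± 3.19 to 40.7 ± 2.17 CPM, adjusted p = 0.00035 by edgeR). The mitochondrial iron importers went the other way, SLC25A28 (mitoferrin-2) at −0.92 (adjusted p = 0.00274) and SLC25A37 (mitoferrin-1) at −0.22 (adjusted p = 0.0217), with ABCB10 at −0.30 (adjusted p = 0.0127). The SLC25A37 call was lost in 4 of 15 alternatives, each of them a gene length correction or the loss of 1 FT671 library, and that of ABCB10 without DMSO replicate 1 or FT671 replicate 3.

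In the cytosolic assembly list 3 of 10 tested genes were higher and 1 lower, beside 23.6% and 26.5% of all genes. GLRX3, a glutaredoxin that carries clusters, was higher (0.55, adjusted p = 0.000109 by edgeR), with CIAO2A (0.33, adjusted p = 0.00577), which matures ACO1, and CIAPIN1 (0.28, adjusted p = 0.0395). CIAO3 was lower (−0.39, adjusted p = 0.0179). The calls of CIAPIN1 and CIAO3 were lost in 7 and 6 of 15 alternatives and that of CIAO2A without FT671 replicate 3. BOLA2 was listed at 0 in every library. The cause was not tested, and no level is read from it.

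The mRNAs known for iron-responsive elements were then grouped by the position of the element. All 4 with a 3′ element were lower: SLC11A2 and TFRC as given above, CDC14A from 48.5 ± 0.854 to 38.8 ± 2.26 CPM (−0.31, adjusted p = 0.0125 by edgeR) and CDC42BPA from 204 ± 20.9 to 165 ± 3.84 CPM (−0.29, adjusted p = 0.00773 by edgeR). The groups of libraries did not overlap for any of the 4, and their median was −0.36. Over all genes 26.5% were lower and 30.3% were lower without overlap, and 4 genes are too few to read more than their own values. The list was made from known elements and not from the search: the MANE Select transcript of SLC11A2 held no match, CDC42BPA held 1 with CAGAGN only, and STEAP3, which held 1 with CAGAGN, is not on the list and was not called. Counts are per gene, so transcripts of a gene with and without an element cannot be told apart. With a gene length correction the calls of CDC14A and CDC42BPA were lost, the former also without FT671 replicate 2. The TFRC elements are shown above, and CDC14A held 1 match, at chr1:100518583-100518611 on the plus strand, with the same CAGTGN loop.
CDC14A: tatttaCatgtaCAGTGTtacattatata

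Among mRNAs with a 5′ element, FTL was higher, FTH1 and ALAS2 (0.22, adjusted p = 0.147) were not called by edgeR, and SLC40A1 and EPAS1 (HIF-2α) were lower. EPAS1 went from 158 ± 5.26 to 53.8 ± 4.82 CPM (−1.55, adjusted p = 1.96e-08 by edgeR). It is listed for a known element, and its MANE Select transcript held no match in the search. The SLC40A1 element, at chr2:189580661-189580689 on the minus strand, carries the same loop as that of FTL, while the levels of these mRNAs moved in opposite directions.
SLC40A1: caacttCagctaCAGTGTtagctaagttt

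Over all genes with such a CAGTGN hairpin, a set chosen after the values were seen, 90 with a 3′ match were tested. Of these 19 were higher and 31 lower (21.1% and 34.4%), with a median log2 fold change of −0.10. TF, which was selected on its fall, holds a 3′ match and is counted among the lower genes, here and with CAGAGN added. With a 5′ match 13 were tested, 3 higher and 4 lower, with a median of 0.11. With CAGAGN added, 163 genes with a 3′ match were tested, 35 higher and 58 lower (35.6%), with a median of −0.12. With a 5′ match 22 were then tested, 3 higher and 9 lower (40.9%), with a median of −0.23, so the sign of the 5′ median turned with the choice of loop. These shares stand beside 23.6% and 26.5% over all genes. They were taken without a gene length correction, with which CDC14A and CDC42BPA, both with a 3′ match, lost their calls. The part of gene length in these shares was not tested.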

How the data were processed

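Total RNA of K562 cells was depleted of ribosomal RNA (KAPA RNA HyperPrep with RiboErase) and sequenced. The authors aligned reads with STAR to hg38 and deposited counts per gene for each library, without normalization; the annotation release and the strand setting are not given in the sources used here. GENCODE release 44 gave symbols, positions, lengths and GC content for 60295 of the 60609 Ensembl identifiers. Library totals were 4555220 to 14250500 counts. The 9 genes and all lists were chosen with earlier results of these data known.

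Genes were filtered with filterByExpr in edgeR 4.0.16 (R 4.3.3), TMM scaling was applied, and the groups were compared by the quasi-likelihood test without covariates, with Benjamini-Hochberg adjustment over 13895 genes at 0.05 and at 1e-05. Groups and replicate numbers came from the sample titles. The SE is the log2 fold change divided by the square root of F. CPM used TMM-scaled library sizes, and log2 CPM for likeness a prior count of 2. The interval of the TF count ratio is exact binomial. Hairpins were searched in UTRs of MANE Select transcripts and checked against hg38. The fit code was checked on simulated counts in which far fewer genes were changed than were called here. That check does not measure the error rate in these data. Python 3.11.15, SciPy 1.17.1 and pandas 2.3.3 were used.

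Named were all 9 genes, those overlapping them or tested within 250 kb of TF, all ligand, receptor, storage, sensing and iron-responsive element genes, and up to 3 called genes a direction and role by size. In addition 3 ferritin copies a family by counts, 3 genes most alike and some unmeasured genes were named, the last after their values were seen. A few genes that this rule would name are not reported here. Alternatives were DESeq2 (1.42.0) size factors and Wald test, library totals alone, no filter, at least 10 counts in every library, a replicate block, gene length and GC corrections (loess, span 0.3), thinning to the smallest library, summed ferritin copies and each library left out. Adding BEST1 to FTH1 was chosen after the data were seen.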

Additional observations from a re-analysis of the deposited data

How the results depend on the processing

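Of the 8 genes other than TF, 2 were higher in the main comparison and 1 with library totals alone, without a filter, with thinned counts or with DESeq2's Wald test, and 1 to 2 with a library left out, ACO1 being the gene lost. At 1e-05 the count in the main comparison was 0 higher and 0 lower, against 3 lower at 0.05. Without a filter TFRC did pass 1e-05 (adjusted p = 1.49e-06 by edgeR's quasi-likelihood test). The wider list had 15 higher, but 23 with a GC correction and 0 at 1e-05, and 14 lower, but 9 with a gene length correction, 2 at 1e-05 and 8 to 16 with a library left out (8 without DMSO replicate 1, FT671 replicate 2 or FT671 replicate 3). NCOA4, not called, ran from −0.081 to 0.016 with a library left out, the reversal being without DMSO replicate 3. The cause was not tested. The fitted TF value ran from −3.90 to −3.28 over 14 alternatives and could not be fitted with at least 10 counts in every library, which removes TF. Over genes, deviations from the group mean correlated between same-numbered libraries at 0.115, −0.0605 and 0.14, so the numbers were not taken to pair the libraries. With 3 libraries a group such values cannot exclude a pairing by experiment. The replicate block gave 2 higher and 3 lower among the 8 genes, changed no call of theirs, and gave 18 higher and 14 lower in the wider list. With 3 libraries a group and 8 TF counts in FT671, the size of the TF difference is limited by counting error.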
